A study of Mus musculus with 6 samples.

Results

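The genes described here make, sense, move and export cholesterol. They were chosen by name, as 29 symbols, and each was followed through every probe set that the array's annotation gives to that symbol alone. This gave 57 probe sets for 27 of the 29 genes, out of 45037 probe sets that are not controls. Acat2, which makes the acetoacetyl-CoA that enters the pathway, and Nr1h2, one of the LXR receptors, had no such probe set in the annotation used here and were not analysed. Of the 57 probe sets, 46 for 25 genes had a Present call on every array of at least 1 group and entered the test, against 20494 probe sets and 9641 genes in all. Of the 11 others, 6 belong to the enzymes Fdps, Fdft1, Lss, Cyp51 and Sc5d and 1 to Scap, which all had other probe sets that were tested. The last 4, of Abca1 and Nr1h3, were all that these 2 genes had.

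The cells were 32D, an interleukin-3 dependent myeloid line grown from the marrow of a C3H/HeJ mouse infected with Friend leukemia virus. One group was mock-transduced and is labelled with the retroviral vector MSCVpuro, and the other was transduced with the Nup98::Nsd1 fusion gene of acute myeloid leukaemia, with 3 samples in each. Both groups share the 32D background and the same strain label, and neither the vector's promoter for the fusion nor whether a group is a clone or a pool is given in the sources used here. RNA of each sample was read on 1 Affymetrix whole-genome mouse array, from 100 ng of total RNA.

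Cholesterol is built from acetyl-CoA along the mevalonate pathway, which yields isoprenoid units, then squalene, then the first sterol, lanosterol, which a further set of enzymes trims to cholesterol. The transcription factor SREBP-2, and in part SREBP-1, turns these enzyme genes on when the endoplasmic reticulum is short of sterol: the escort protein Scap carries SREBP to the Golgi to be cut, and the Insig proteins hold it back when sterol is plentiful. When sterols are in excess, the LXR nuclear receptors turn on the exporters Abca1 and Abcg1 and the ubiquitin ligase Mylip, which marks lipoprotein receptors for destruction. Macrophages are the blood cells best known for the export arm, and dividing cells are known for a high demand on the synthesis arm.

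The share of Present calls was 45.1% to 45.9% in mock and 47.6% to 48.2% in Nup98::Nsd1. RNA quality, read as the Actb control's 3' signal over its 5' signal, was 1.15 to 1.20 and 1.45 to 1.50. The same ratio for the Gapdh control was 0.74 to 0.77 and 0.80 to 0.84. Of 11 myeloid progenitor markers, 8 were Present on all 6 arrays, among them Mpo, Spi1 and Ptprc, while Kit and Cd34 were Present on none; the list's summed signal was 63058 to 67806 on the mock and 49091 to 49427 on the Nup98::Nsd1 arrays. Of the 9 tested, 4 fell, with Mpo going from 19095 to 5183 and Prtn3 from 9202 to 4878 in mean signal, and 4 rose. Of 11 monocyte and macrophage markers, 10 had a probe set and 6 were Present on all arrays; Cd14, Marco and Msr1 were Present on none. The summed signal of these 10 was 6648 to 7029 on the mock and 13249 to 13406 on the Nup98::Nsd1 arrays. Among the 6 tested, 5 rose and 1 fell. Fcgr3 went from 1001 to 4267 and Fcgr1 from 1222 to 2938 in mean signal. Adgre1 rose 1.17-fold, and Cd68 fell, from 1036 to 842. Of 6 erythroid markers, 4 had a probe set; their sum was 3789 to 3888 on the mock and 2395 to 2808 on the Nup98::Nsd1 arrays, and 2 of the 3 tested, Gata1 and Klf1, fell. Hba-a1 was Present on no array. Fibroblast markers summed to 119 to 188 and 132 to 183, with 4 of 6 Present on no array. The part of these differences in the results was not tested. No label says whether the 3 samples of a group were separate cultures, so the spread behind each p-value may be technical.

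The synthesis genes as a group stood lower in Nup98::Nsd1 cells, while the sterol exporter Abcg1 stood higher. Of the 17 synthesis genes tested, 12 fell, 3 rose and 2 did not pass, with a median log2 fold change of -0.41 (Nup98::Nsd1 over mock) against 0.12 over all tested genes. Over all 9641 tested genes, 29.5% fell and 42.9% rose at the same threshold, a limma adjusted p of 0.05. A gene is counted by its brightest tested probe set. The largest falls were those of the sterol enzymes Msmo1, Cyp51, Hsd17b7, Sqle, Nsdhl and Ebp. Of the 5 SREBP control genes, 2 rose and 1 fell, with a median of 0.18 that was 0.072 without mock replicate 3, -0.019 with each array centred on its 75th percentile and -0.19 with the arrays scaled to their hybridization controls. Of the 3 tested genes of transport, LXR and efflux, Abcg1 and Mylip rose and Stard4 fell. By probe set, 26 of the 46 fell and 13 rose, against 27.6% and 42.3% of all 20494 tested probe sets. Some of the 46 entered the test only through the group where their signal was higher. Of the member probe sets Present on all 6 arrays, 24 fell and 11 rose, in a setting where 57.6% of all calls were higher. In bulk RNA such as this, fewer cells that express a gene and less RNA per cell cannot be told apart.

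The 3 Nup98::Nsd1 arrays each showed the shift in the synthesis genes. The median log2 signal of the 17 genes, each set against its own mock mean, was -0.41, -0.54 and -0.31 on the Nup98::Nsd1 arrays and lay between -0.015 and 0.043 on the mock arrays. For the 5 SREBP control genes the same median was 0.20, 0.11 and 0.17, against -0.015 to 0.0038 on the mock arrays.

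The 4 settings other than the deposited scaling are named below: quantile normalization, centring each array on its upper quartile (75th percentile), centring it on its median, and spike scaling, which sets the hybridization control probe sets equal.

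Of the 6 tested genes up to farnesyl diphosphate, 4 fell, Pmvk rose and Mvk did not pass. Hmgcs1, the cytosolic synthase that joins acetyl-CoA to acetoacetyl-CoA, had 5 tested probe sets, 4 of them bright. The brightest gave 4987, 5196 and 4941 on the mock arrays and 4437, 4516 and 4312 on the Nup98::Nsd1 arrays, a fall of 1.14-fold that is small but outside the range of the mock arrays (log2 fold change -0.19, SE 0.041, adjusted p = 0.00151 by limma). The other bright ones had log2 fold changes of -0.50, -0.82 and -1.20 and adjusted p-values of 2.10e-06, 3.87e-07 and 6.13e-09. The last of these, by that order, gave 2191, 2162 and 2222 on the mock arrays and 1002, 953 and 901 on the Nup98::Nsd1 arrays. All 4 thus fell with groups that did not overlap, but by amounts from 1.14-fold to 2.30-fold. The fifth, near background at 46.6, 63.6 and 36.9 on the mock arrays and 87.6, 105 and 65.4 on the Nup98::Nsd1 arrays, rose (log2 fold change 0.82, SE 0.290, adjusted p = 0.0251). Its rise did not pass under any of the 4 other scalings, and the fall of the brightest stood at -0.050 after quantile normalization (adjusted p = 0.286).

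Mevalonate is then phosphorylated by Mvk and Pmvk, decarboxylated by Mvd and isomerised by Idi1. Pmvk rose: its single probe set gave 834, 831 and 871 on the mock arrays and 1328, 1257 and 1436 on the Nup98::Nsd1 arrays, which is 1.58-fold higher (log2 fold change 0.66, SE 0.064, adjusted p = 2.44e-06). Every Nup98::Nsd1 array lay above every mock array. Mvk did not pass at its brighter probe set (344 ± 16.6 to 313 ± 25.2, mean ± SD, n = 3 each; adjusted p = 0.25 in limma). It fell at the other (log2 fold change -0.42, limma adjusted p = 0.00727). That one entered the test only through its mock arrays, where it was higher, and was Present on 1 Nup98::Nsd1 array. Mvd fell by 0.27 on the log2 scale at its brighter probe set (1082 ± 159 to 893 ± 5.47, limma adjusted p = 0.0242) and did not pass at the other (log2 fold change -0.06). That call on Mvd was lost on leaving out mock replicate 1 (adjusted p = 0.0752), mock replicate 3 (0.106) or Nup98::Nsd1 replicate 1, 2 or 3 (0.0584, 0.0532 and 0.0502).

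Idi1, which makes the allylic unit used for chain building, gave 7950.5, 8997 and 8551 on the mock arrays and 5153, 5105 and 5511 on the Nup98::Nsd1 arrays. It was 1.62-fold lower, with no overlap (log2 fold change -0.69, SE 0.052, adjusted p = 3.11e-07), and its dimmer probe set fell by 0.19. That call on the dimmer one was lost after quantile normalization (-0.075, adjusted p = 0.316) and without the intensity trend in limma (adjusted p = 0.0899). Fdps, the farnesyl diphosphate synthase, fell, its signal passing from 13660.3 ± 895 to 10279.8 ± 819.7 (SD, n = 3 each; log2 fold change -0.41, adjusted p = 0.000106).

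Squalene is made by Fdft1, epoxidised by Sqle and closed into lanosterol by Lss. Sqle, a rate-limiting step of the later pathway, gave 4084, 4185 and 4251 on the mock arrays and 2237, 2058 and 2542 on the Nup98::Nsd1 arrays. The highest Nup98::Nsd1 array lay below the lowest mock array, and the level was 1.84-fold lower (log2 fold change -0.88, SE 0.067, adjusted p = 3.54e-07). Fdft1 and Lss each had probe sets that went opposite ways. For Fdft1, the brighter gave 2016, 2044 and 2030.5 on the mock arrays and 2271, 2252 and 2239.8 on the Nup98::Nsd1 arrays, a rise of 1.11-fold (adjusted p = 0.00794). The dimmer gave 1377, 1350.0 and 1358 on the mock arrays and 1045, 1072 and 1164 on the Nup98::Nsd1 arrays, 1.25-fold lower (adjusted p = 0.000418). The brighter probe set's rise of 0.15 equals the median of all tested probe sets, and its sign turned with upper-quartile centring (-0.045), median centring (-0.018) and spike scaling (-0.21).

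For Lss, the brighter probe set gave 962, 1120.3 and 1116 on the mock arrays and 801, 879 and 945 on the Nup98::Nsd1 arrays, a fall with a log2 fold change of -0.28 (adjusted p = 0.00803). The dimmer gave 484, 456 and 453 on the mock arrays and 552, 612 and 659 on the Nup98::Nsd1 arrays, a rise (log2 fold change 0.38, adjusted p = 0.0019) that did not pass after quantile normalization (0.20), upper-quartile centring (0.19) or spike scaling (0.019). Within an array, the log2 ratio of the 2 Fdft1 probe sets was 0.55 to 0.60 on the mock and 0.94 to 1.12 on the Nup98::Nsd1 arrays. For Lss it was -1.30 to -0.99 and -0.54 to -0.52. These pairs were picked because their calls were opposite, so the ratios are a description and carry no test. Among members, 14 had more than 1 tested probe set, and 4 of these (Hmgcs1, Fdft1, Lss and Msmo1) were called both ways; among all genes it was 598 of 4711.

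**Figure D1:**
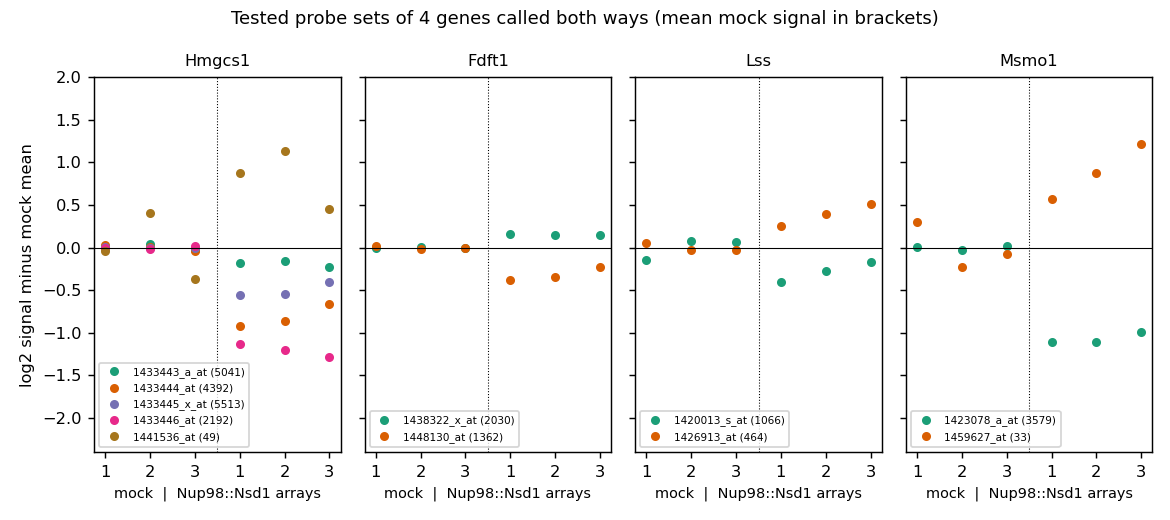
The vertical axis is the log2 signal minus the mock mean of the same probe set, for each array of the 4 genes with calls both ways; each colour is a probe set, with its mean mock signal in brackets, and the dotted line separates mock from Nup98::Nsd1 arrays. The probe sets of Hmgcs1 fan out from -1.20 to 0.82, and those of Fdft1, Lss and Msmo1 part above and below 0.

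Of the 8 tested genes that act after lanosterol, 6 fell, Tm7sf2 rose and Dhcr7 did not pass. Cyp51 removes the first methyl group of lanosterol. Its brightest probe set gave 2464, 2497 and 2393 on the mock arrays and 1235, 1235 and 1407 on the Nup98::Nsd1 arrays, 1.90-fold lower (log2 fold change -0.93, SE 0.059, adjusted p = 8.38e-08), and a second one fell by 1.01 on the log2 scale. Tm7sf2, one of the sterol reductases that act on the next double bond, went the other way. It gave 186, 224 and 228 on the mock arrays and 392, 418 and 339.9 on the Nup98::Nsd1 arrays, 1.80-fold higher with no overlap (log2 fold change 0.85, SE 0.126, adjusted p = 8.81e-05), and no other synthesis gene rose as much at its brightest probe set.

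Msmo1, the methyl sterol oxidase of the next demethylation steps, showed the largest fall of any member gene at its brightest probe set. The signals were 3602, 3519 and 3615 on the mock arrays and 1661, 1662 and 1805 on the Nup98::Nsd1 arrays, which is 2.10-fold lower (log2 fold change -1.07, SE 0.048, adjusted p = 5.87e-09). Its other probe set lay near background at 40.2, 27.9 and 31.1 on the mock arrays and 48.6, 59.7 and 75.7 on the Nup98::Nsd1 arrays. It was Present on 1 mock array, so it entered the test only through its Nup98::Nsd1 arrays, where it was higher. It rose (limma adjusted p = 0.0248), but did not pass under any of the 4 other scalings. Nsdhl, the dehydrogenase that works with Msmo1, gave 2754, 2462 and 2833 on the mock arrays and 1573, 1372 and 1597 on the Nup98::Nsd1 arrays, 1.77-fold lower (log2 fold change -0.83, SE 0.070, adjusted p = 9.20e-07). The groups of Nsdhl did not overlap either.

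Hsd17b7, the ketoreductase of the same demethylation complex, had 4 tested probe sets. The brightest gave 883, 869 and 914 on the mock arrays and 412, 517 and 494 on the Nup98::Nsd1 arrays, 1.88-fold lower (log2 fold change -0.91, SE 0.089, adjusted p = 2.90e-06). The next 2 fell by 0.98 and 1.60 on the log2 scale. The latter entered the test only through its mock arrays, where it was higher, and was Present on 1 Nup98::Nsd1 array only. The fourth, at 39.6 to 69.9 over all arrays, did not pass (adjusted p = 0.717).

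Ebp, the sterol isomerase, gave 2212, 2164 and 2322 on the mock arrays and 1339.6, 1209 and 1423 on the Nup98::Nsd1 arrays. It was 1.69-fold lower (log2 fold change -0.76, SE 0.063, adjusted p = 8.00e-07), and no Nup98::Nsd1 array reached the mock range. Sc5d, the desaturase that follows, gave 1907, 1970.1 and 2029 on the mock arrays and 1401, 1187 and 1321 on the Nup98::Nsd1 arrays, 1.51-fold lower (log2 fold change -0.60, SE 0.064, adjusted p = 6.12e-06), and fell by 0.37 at a dimmer probe set. Dhcr7, the reductase at the end of the pathway, was at 494 ± 72.0 to 421 ± 19.2 and did not pass (log2 fold change -0.22, adjusted p = 0.0931 in limma). Without mock replicate 1, the lowest mock array, Dhcr7 passed at -0.35 (adjusted p = 0.00887), and it passed under each of the 4 other scalings, at -0.39 to -0.59.

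**Figure D2:**
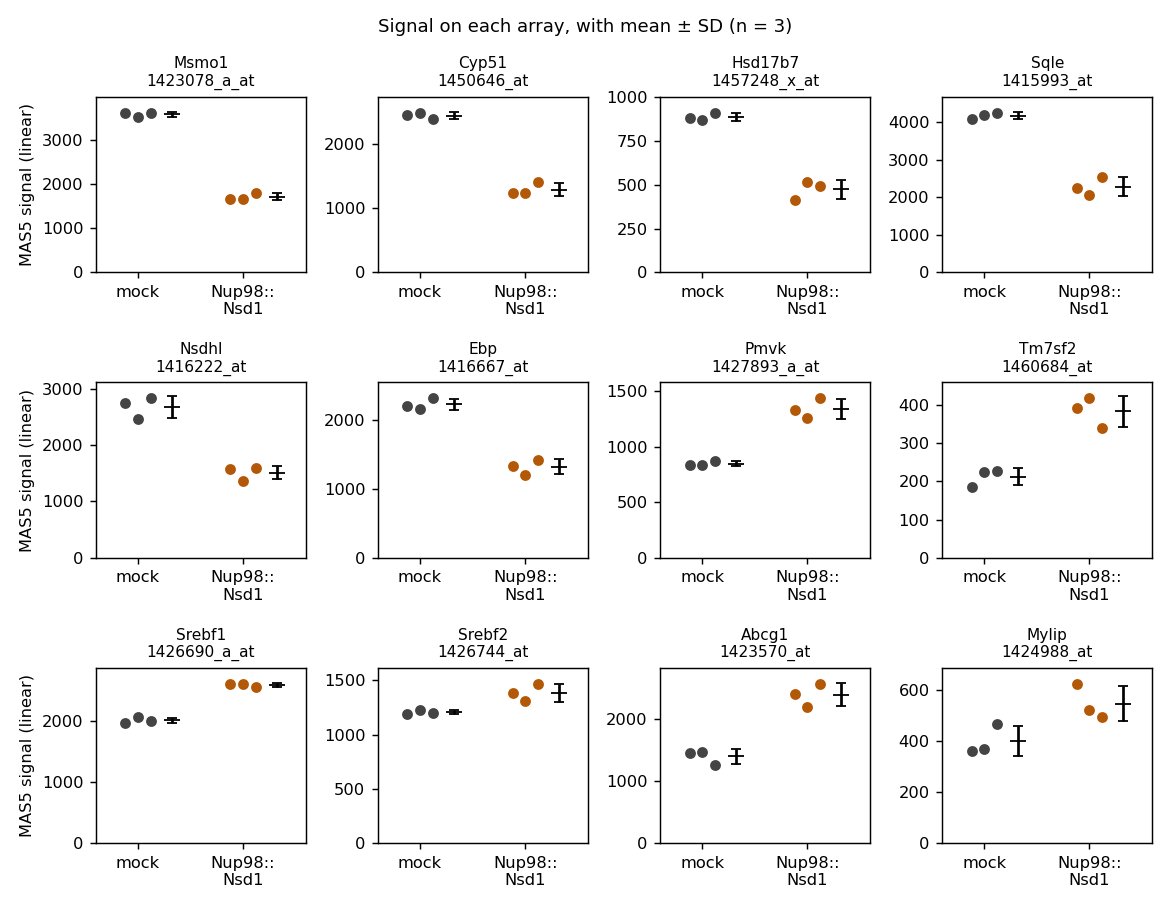
Each panel shows the MAS5 signal, on a linear axis from 0, of 1 probe set on each mock and each Nup98::Nsd1 array, with the mean and SD of 3 arrays beside the points. Msmo1, Cyp51, Hsd17b7, Sqle, Nsdhl and Ebp lie lower on all 3 Nup98::Nsd1 arrays, and Pmvk, Tm7sf2, Srebf1, Srebf2, Abcg1 and Mylip lie higher.

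Promoter letters did not enter the choice of members. RefSeq start sites on GRCm38.p6 were at hand for 24 of the 29 genes, 15 of them synthesis genes, and the 250 bases before each start were read. Those of Hmgcs1, Msmo1, Hsd17b7 and Cyp51 are printed as genes that fell, and that of Tm7sf2 as one that rose. Capitals mark CCAAT, the letters bound by the factor NF-Y that works beside SREBP, on either strand (ATTGG when it lies on the other), and the sterol element letters TCACNCCAC or their first 8, TCACNCCA. The Hmgcs1 window is chr13:119690101-119690350 on the plus strand, Msmo1 chr8:64733579-64733828 on the minus strand, Hsd17b7 chr1:169969206-169969455 on the minus strand, Cyp51 chr5:4104698-4104947 on the minus strand and Tm7sf2 chr19:6067851-6068100 on the minus strand. Each is written 5′ to 3′ on the gene's own strand.
Hmgcs1: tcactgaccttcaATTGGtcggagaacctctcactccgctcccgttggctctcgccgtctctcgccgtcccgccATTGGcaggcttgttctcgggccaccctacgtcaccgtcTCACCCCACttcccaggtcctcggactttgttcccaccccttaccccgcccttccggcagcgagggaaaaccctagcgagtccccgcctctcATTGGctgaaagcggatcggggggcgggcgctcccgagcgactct
Msmo1: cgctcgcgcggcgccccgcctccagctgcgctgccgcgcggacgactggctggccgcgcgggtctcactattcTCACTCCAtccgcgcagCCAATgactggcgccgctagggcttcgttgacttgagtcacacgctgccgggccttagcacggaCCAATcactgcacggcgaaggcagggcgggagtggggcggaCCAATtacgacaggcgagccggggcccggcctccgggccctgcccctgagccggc
Hsd17b7: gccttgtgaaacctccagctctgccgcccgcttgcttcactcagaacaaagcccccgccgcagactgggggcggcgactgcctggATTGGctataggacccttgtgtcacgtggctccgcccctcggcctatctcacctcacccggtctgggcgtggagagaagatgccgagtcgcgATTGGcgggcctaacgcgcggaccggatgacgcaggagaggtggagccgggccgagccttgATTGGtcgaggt
Cyp51: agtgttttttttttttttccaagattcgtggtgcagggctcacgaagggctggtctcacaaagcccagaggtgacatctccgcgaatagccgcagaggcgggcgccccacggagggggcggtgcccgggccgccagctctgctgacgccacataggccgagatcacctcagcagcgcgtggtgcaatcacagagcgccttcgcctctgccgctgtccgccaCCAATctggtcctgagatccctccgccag
Tm7sf2: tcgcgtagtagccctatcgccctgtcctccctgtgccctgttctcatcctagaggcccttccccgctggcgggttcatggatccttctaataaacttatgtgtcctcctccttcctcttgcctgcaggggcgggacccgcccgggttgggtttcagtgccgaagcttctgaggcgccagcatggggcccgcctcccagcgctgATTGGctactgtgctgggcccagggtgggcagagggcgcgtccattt

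The full sterol element was found in 1 of the 15 synthesis genes, Hmgcs1, where it begins 137 bases before the start, against 1.05% of all 32851 promoter windows of the same length and 1.29% of the tested genes with an entry. Its first 8 letters were also in Msmo1, 177 bases before the start, and in Srebf2, 162 bases before it, against 3.67% of all windows and 4.03% of those genes. The CCAAT letters were in 14 of the 15 synthesis genes, the exception being Acat2, against 33.9% of all windows and 40.9% of the 7937 tested genes with an entry. They were also in 4 of the 5 SREBP control genes and 1 of the 4 transport, LXR and efflux genes. A gene with several start sites counted when any of its windows held the letters. Hmgcs1, Msmo1 and Hsd17b7 each carried 3 runs of the CCAAT letters, while Cyp51, which also fell, carried 1. Taken over all windows of a gene, Mylip, which rose, and Insig2, whose brightest probe set did not pass, also carried 3. Mvk, whose brighter probe set did not pass, carried more than 3. Pmvk and Tm7sf2, which rose, held the CCAAT letters too. The E-box letters CACGTG were in 3 synthesis genes, namely Hsd17b7, Sc5d and Dhcr7, against 6.02% of all windows and 10.3% of the tested genes. They were also in 2 of the 5 SREBP control genes and 1 of the 4 transport, LXR and efflux genes. A match is a run of letters and does not show that a factor binds there.

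The control genes set the activity of SREBP. Srebf1, which encodes SREBP-1, gave 1978, 2063 and 2006 on the mock arrays and 2614, 2609.5 and 2556 on the Nup98::Nsd1 arrays, 1.29-fold higher (log2 fold change 0.36, SE 0.044, adjusted p = 1.59e-05). The groups lay apart as deposited, but the log2 fold change stood at -0.0017 with spike scaling. Srebf2, which encodes SREBP-2, the main activator of the synthesis genes, gave 1194, 1228 and 1197 on the mock arrays and 1382, 1308 and 1470.2 on the Nup98::Nsd1 arrays at its brighter probe set (log2 fold change 0.20, SE 0.058, adjusted p = 0.00875). Its dimmer probe set gave 676, 631 and 594 on the mock arrays and 982, 919 and 966 on the Nup98::Nsd1 arrays, 1.51-fold higher (adjusted p = 1.38e-05). Both rose as deposited. The brighter did not pass with upper-quartile centring (0.0037) or median centring (0.030), nor with spike scaling, where it was at -0.17. The dimmer stayed higher and past the threshold under each other scaling.

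Scap, the SREBP escort, gave 1398, 1258 and 1369 on the mock arrays and 1188, 1124 and 1123 on the Nup98::Nsd1 arrays. It fell by 0.23 on the log2 scale (SE 0.059, limma adjusted p = 0.00485) and fell under each other scaling. Insig1, the sterol-regulated anchor and itself a known SREBP target, gave 1644, 1609 and 1570.2 on the mock arrays and 1750.1, 1739 and 1641 on the Nup98::Nsd1 arrays. Its groups overlapped and the change did not pass (log2 fold change 0.09, SE 0.050, adjusted p = 0.134), although it stood at -0.28 (adjusted p = 0.00347) with spike scaling.

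Insig2, the second anchor, had 3 probe sets. The brightest by mean log2 signal gave 549, 601 and 651 on the mock arrays and 714, 647 and 672 on the Nup98::Nsd1 arrays, and did not pass (adjusted p = 0.0734). The second gave 643, 626 and 590.2 on the mock arrays and 726, 589 and 617 on the Nup98::Nsd1 arrays and did not pass either (adjusted p = 0.622). The third gave 412, 387 and 321 on the mock arrays and 421, 484 and 453 on the Nup98::Nsd1 arrays and rose (log2 fold change 0.28, adjusted p = 0.0382), a call that ended without mock replicate 2 (adjusted p = 0.0535) or 3 (0.153), without Nup98::Nsd1 replicate 2 (0.122) or 3 (0.0778), and under each other scaling. Leaving out mock replicate 3 brought the brightest past the threshold at 0.24 (adjusted p = 0.0309).

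The count of rises among the 5 control genes, 2 as deposited, was 1 with either centring and 0 with spike scaling, and the count of falls, 1 as deposited, was 2 with the last.

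Stard4, which carries cholesterol between membranes inside the cell and is a known SREBP-2 target, fell at all 3 of its probe sets. The brightest gave 1925, 1923 and 1909 on the mock arrays and 1545, 1509 and 1562 on the Nup98::Nsd1 arrays, 1.25-fold lower (log2 fold change -0.32, SE 0.046, adjusted p = 6.98e-05). The second gave 1599, 1850.2 and 1780.2 on the mock arrays and 1122, 981 and 1037 on the Nup98::Nsd1 arrays, a fall of 0.74 on the log2 scale (adjusted p = 2.25e-06). The third gave 1033, 1027 and 1011 on the mock arrays and 884, 825 and 640.3 on the Nup98::Nsd1 arrays, a fall of 0.40 (adjusted p = 0.00418). In each case the arrays of the groups did not overlap.

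Mylip, the ligase that removes lipoprotein receptors and so limits uptake, gave 363, 371 and 468 on the mock arrays and 624, 523 and 492 on the Nup98::Nsd1 arrays. Its highest mock array came close to its lowest Nup98::Nsd1 array. It was 1.37-fold higher (log2 fold change 0.45, SE 0.121, adjusted p = 0.00578), and the call did not hold after quantile normalization (0.26), upper-quartile centring (0.25), median centring (0.28) or spike scaling (0.085).

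Abcg1, the exporter that passes cholesterol to high-density lipoprotein, rose at its brighter probe set, which gave 1455, 1474 and 1261 on the mock arrays and 2403, 2195 and 2564 on the Nup98::Nsd1 arrays, 1.71-fold higher (log2 fold change 0.77, SE 0.073, adjusted p = 2.11e-06). The dimmer entered the test only through its Nup98::Nsd1 arrays, where it was called Present, while it was Absent on each mock array; its signals were 70.5, 83.2 and 57.5 on the mock arrays and 237, 263 and 286 on the Nup98::Nsd1 arrays. The brighter stayed past the threshold under all 4 other scalings, lowest at 0.41 with spike scaling (adjusted p = 0.000812). The 10 monocyte and macrophage markers, whose sums are given above, were also higher in sum on these arrays, with 5 of the 6 tested higher and Cd68 lower. Their part in the rise of Abcg1 was not tested.

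The other exporter and the LXR receptor that were on the array could not be compared. Abca1, which loads cholesterol on lipid-poor apolipoprotein, had 3 probe sets with signals from 2.97 to 54.6, and the only Present call among their 18 was on Nup98::Nsd1 replicate 1. Nr1h3, which encodes LXR alpha, gave 30.1, 21.3 and 16.8 on the mock arrays and 45.0, 32.9 and 34.9 on the Nup98::Nsd1 arrays, each called Absent. Nup98::Nsd1 signals of Nr1h3 were all above those of mock, but none was called detected.

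**Figure D3:**
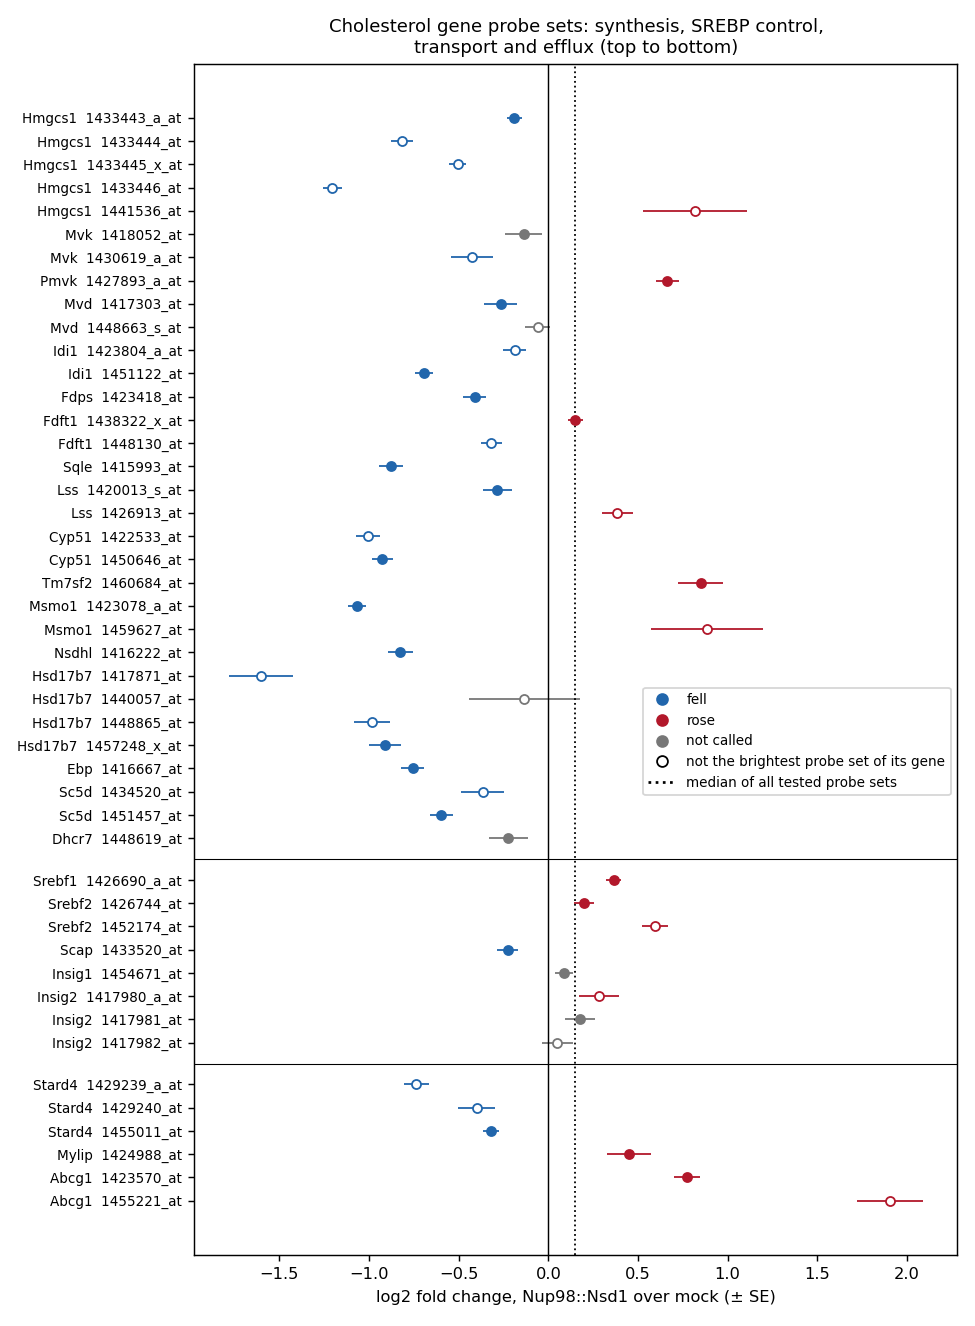
Each point is the limma log2 fold change (Nup98::Nsd1 over mock) of 1 of the 46 tested probe sets, with its SE as the bar; blue fell, red rose, grey did not pass, and open points are not the brightest of their gene. Most of the synthesis panel lies left of 0, with Pmvk and Tm7sf2 to the right, and Abcg1 lies to the right in the lowest panel, its open point resting on mock signals called Absent.

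Set among all tested genes, the sterol enzymes lay toward the lower end. Only 2.04% of the 9641 genes had a lower log2 fold change than Msmo1, 3.36% than Cyp51, 3.60% than Hsd17b7, 4.08% than Sqle, 4.89% than Nsdhl and 6.17% than Ebp. At the other end, 80.1% of genes lay below Pmvk, 84.4% below Abcg1 and 86.7% below Tm7sf2. Srebf1 and Srebf2 lay near the middle, with 66.0% and 55.6% of genes below them. Of the member genes at their brightest probe sets, only Msmo1 changed by more than 2-fold.

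**Figure D4:**
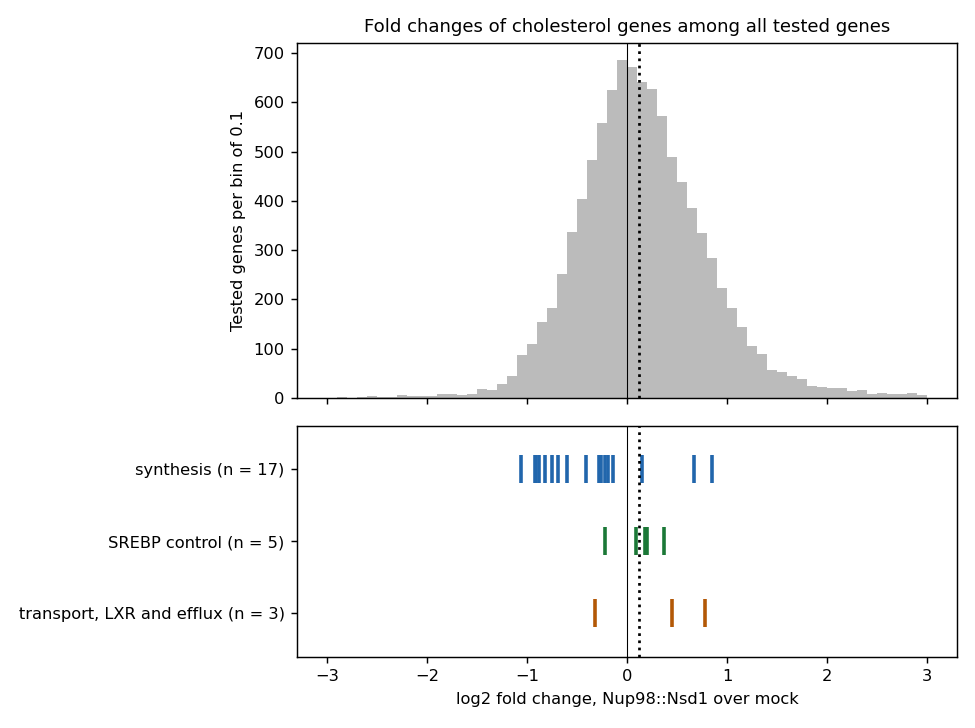
The upper panel is a histogram of log2 fold changes of the tested genes in bins of 0.1 (genes beyond 3 in size are not drawn), and the lower panel marks each member gene by its group; the dotted line is the median of all tested genes, 0.12. Of the 17 synthesis genes, 14 lie left of 0, down to -1.07.

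Neighbouring lipid genes were read from wider lists. In the endosomal and intracellular sterol transport and esterification list, 9 of 11 tested genes rose and 2 fell, with a median log2 fold change of 0.72. Soat1, the list's gene for making sterol esters, was not among those tested, so the counts do not cover that step. Over all tested genes, 42.9% rose and 29.5% fell, with a median of 0.12. Gramd1a, a carrier of sterol from the plasma membrane to the endoplasmic reticulum, rose 2.95-fold (518 ± 8.46 to 1533 ± 126, adjusted p = 5.92e-09). Npc2, the lysosomal cholesterol-binding protein, rose 1.66-fold (5776 ± 259.7 to 9556 ± 19.5) and Osbpl2, an oxysterol-binding protein relative, 1.91-fold (1626 ± 115 to 3109 ± 116). These 3 were past the threshold under each scaling. The list's counts were 7 and 2 with upper-quartile centring, median centring and spike scaling. Of all calls, 44.8%, 47.1% and 32.3% were higher under these. The 2 that fell were Scarb1, a receptor for high-density lipoprotein, at 1.39-fold lower, and Lrp8, a lipoprotein receptor that Mylip acts on, at 1.31-fold lower; both were named after their values were seen. Monocyte and macrophage markers summed higher on the same Nup98::Nsd1 arrays, with Cd68 lower, as given above, and their part in this list was not tested.

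Fatty acid synthesis and desaturation genes, many of them SREBP-1 targets, were mixed: 4 of 10 tested rose and 2 fell. Over all tested genes, 42.9% rose and 29.5% fell. The list's counts were 1 and 7 with spike scaling, and 2 and 5 when a gene's probe sets were averaged. Of all calls, 32.3% and 60.1% were higher under these settings. Fads1, a desaturase, rose 1.92-fold and Acss2, an acetyl-CoA synthetase, 1.49-fold, while Elovl5, a fatty acid elongase, was 1.68-fold lower. Acss2 did not pass with spike scaling (0.21, adjusted p = 0.0719), and 1 of its 2 probe sets was not called.

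Of 14 isoprenoid branch genes, which draw on the same mevalonate, 8 rose and 3 fell, but 4 and 5 with either centring and 2 and 7 with spike scaling. Beside each deposited count in this paragraph stand 42.9% rising and 29.5% falling over all tested genes. Of all calls, 44.8%, 47.1% and 32.3% were higher with upper-quartile centring, median centring and spike scaling. Rabggtb and Nus1, which serve prenylation of Rab proteins and dolichol synthesis, were 1.49-fold and 1.29-fold lower, and Chm, the Rab escort protein, was 1.79-fold higher. Of 5 genes of SREBP processing, 2 rose and 2 fell: Mbtps2, the site-2 protease that releases SREBP, rose 1.28-fold but stood at -0.0098 with spike scaling, and Erlin2 and Rnf139, which take part in the turnover of endoplasmic reticulum proteins, were 1.27-fold and 1.31-fold lower. Of 2 tested LXR partners and targets, Rxrb, a partner receptor, rose 1.83-fold, and Lpcat3 did not pass. Of the oxysterol enzymes only Hsd3b7 was tested; it was 1.14-fold lower, and its adjusted p reached 0.132 under another scaling.

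Every one of these values carries the scaling of the arrays. The median log2 fold change of all tested probe sets was 0.15 as deposited, -0.0090 for quantile normalization, -0.045 for upper-quartile centring, -0.018 for median centring and -0.21 for spike scaling. The share of calls that were higher was 60.5%, 49.7%, 44.8%, 47.1% and 32.3%. The fall of the synthesis genes was present under each of these: the counts of falls and rises among the 17 were 13 and 3, 14 and 2, 14 and 2, and 15 and 2 in that order, against 12 and 3 as deposited. Their median stood at -0.42 beside 0.011 for all genes, -0.61 beside -0.081, -0.58 beside -0.054 and -0.78 beside -0.25. Pmvk, Tm7sf2 and Abcg1 rose under all 5 scalings.

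**Figure D5:**
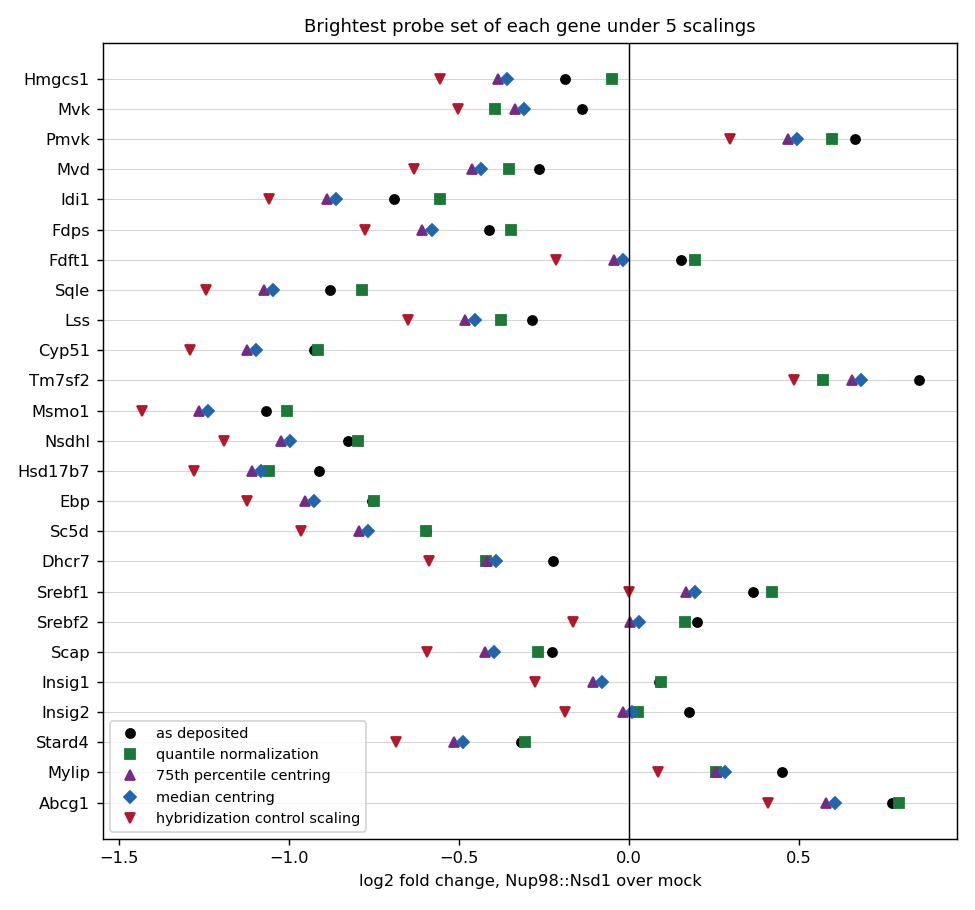
Each row is a member gene at its brightest tested probe set and each symbol its log2 fold change (Nup98::Nsd1 over mock) under 1 of 5 scalings of the arrays (the legend's hybridization control scaling is the spike scaling of the text). Msmo1, Cyp51, Sqle, Hsd17b7, Nsdhl and Ebp stay left of 0 and Pmvk, Tm7sf2, Mylip and Abcg1 right of it under all 5, while Fdft1, Srebf1, Srebf2, Insig1 and Insig2 have symbols on both sides.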

How the data were processed

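RNA of 3 mock and 3 Nup98::Nsd1 samples was measured on 1 array each. Per the submitters' processing notes and the file headers, the authors made the signals with MAS5. Each deposited value is a linear intensity, with the same 2% trimmed mean of 500.003 on every array, beside a deposited detection p-value and its Present, Marginal or Absent call. Sources used here give neither the MAS5 version nor the scaling target. The deposited series matrix held the same intensities.

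Signals under 1 were raised to 1 and converted to log2 here. Symbols came from the platform annotation, updated through Entrez identifiers; 34945 probe sets had 1 symbol, 932 several, and 9160 were unlisted. Groups were compared with limma 3.58.1 (R 4.3.3; intensity trend, Benjamini-Hochberg adjustment over all 20494 tested probe sets, threshold 0.05), checked on simulated data. A gene is its tested probe set of highest mean log2 signal. The number of arrays limits the precision.

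The members and lists were chosen with earlier results of these data known. Values per array are given for members past the threshold with a log2 fold change of at least 0.5 in size, for all SREBP control, transport, LXR and efflux genes, and where probe sets disagree; in each wider list up to 3 genes past the threshold with the smallest p are named. Other scalings, filters, pseudocounts, variance models and left-out arrays were tried. Same-numbered samples did not deviate together (r from -0.017 to 0.021), so the numbers were not used as pairs. The 4 promoter letter patterns given were searched on both strands, in the sequences of RefSeq start sites (GRCm38.p6).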

Additional observations from a re-analysis of the deposited data

How the results depend on the processing

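The count of synthesis genes that fell or rose stayed within 1.5 times of its value under each alternative run, with falls of 11 to 15 and rises of 2 to 3. Their median log2 fold change of -0.41 moved to -0.61 on upper-quartile centring, -0.58 on median centring and -0.78 on spike scaling, which shift all probe sets alike. For the 5 SREBP control genes, the median of 0.18 was 0.093 after quantile normalization and 0.0078 with median centring, and its sign turned at -0.019 with upper-quartile centring and -0.19 with spike scaling; it ranged from 0.072 to 0.18 on leaving out each array. The 1 fall in this list became 2 with spike scaling, and the 2 rises became 1, 1 and 0 with upper-quartile centring, median centring and spike scaling. For transport, LXR and efflux genes, the 2 rises became 1 under each of the 4 other scalings, and the median of 0.45 was 0.26, 0.25, 0.28 and 0.085 with quantile normalization, upper-quartile centring, median centring and spike scaling. The 13 member probe sets that rose were 8, 6, 7 and 5 in the same order. Single probe sets whose sign turned were the brighter of Fdft1 (-0.045 with upper-quartile centring, -0.018 with median centring and -0.21 with spike scaling) and, with spike scaling, 2 of Insig2 (-0.082 and -0.31), Srebf1 (-0.0017), the brighter of Srebf2 (-0.17) and Insig1 (-0.28). The cause was not tested. Beside the calls given with the results, those on the dimmer Idi1 probe set (without mock replicate 1 at -0.11, and Nup98::Nsd1 replicate 1 at -0.18 or 3 at -0.17), the dimmer Sc5d probe set (without mock replicate 2 at -0.34, and Nup98::Nsd1 replicate 1 at -0.29 or 2 at -0.31) and the near-background probe sets of Hmgcs1 (0.63 to 0.80) and Msmo1 (0.72 to 0.89) ended on leaving out 1 array in some cases. Without the intensity trend, the calls on Mvd, the dimmer Idi1 and the third Insig2 probe set ended. Without a filter on detection, the calls on Mvd, the third Insig2 probe set and both near-background probe sets ended. Mvk and the dimmer Mvd probe set passed, lower, under each of the 4 other scalings. With the replicate number as a block, all 46 member probe sets kept their direction and their side of the threshold, and 22 synthesis, 1 SREBP control and 3 transport probe sets fell as before.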
